A study of Homo sapiens with 6 samples.

Results

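The cancer-testis antigen families are groups of related genes, some of them near-identical copies and most of them on chromosome X. Their transcripts are normally found in male germ cells and reappear in many tumours. The 41 genes described here are the protein-coding genes with values whose GENCODE 29 names begin with MAGEA, MAGEB, MAGEC, MAGED, MAGEE, MAGEF, MAGEH, SPANX, PAGE, GAGE, XAGE, SSX, CSAG or CTAG, out of 30099 genes in all. GENCODE 29 holds 89 protein-coding genes with such names, 81 of them on chromosome X, and the other 48 were not analysed here. The families were picked from measured values of the same comparison, because SPANXB1 and MAGEA6 were known to differ strongly in it. Their members were then selected by name among the genes with values. No gene with values was at 0 in all 6 libraries, so the members are also a set detected in these same libraries. The differences of the members below are therefore a description, and no p-value is attached to any of them. The name rule also takes in genes that are not cancer-testis antigens: the MAGED, MAGEE, MAGEF and MAGEH genes are broadly expressed type II MAGE genes, SSX2IP encodes a partner of the SSX2 protein, and the CTAGE genes are relatives of a secretory pathway gene.

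RNA was sequenced from 3 libraries of Pep2-E3 cells and 3 libraries of MDA-MB-231 control cells. MDA-MB-231 is an established human line of claudin-low, basal-like breast cancer cells, and the labels give its genotype as control. The Pep2-E3 cells have the same cell line background and the genotype label Pep-E3. The labels do not say which allele or agent that stands for, whether Pep2-E3 is 1 clone, or whether the replicates were separate cultures. The p-values given here for other genes therefore reflect no more than library-to-library spread, and that spread may be technical.

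In normal somatic tissue, type I MAGE, SPANX, PAGE, GAGE, XAGE and SSX genes are held silent, with DNA methylation of their promoters a main layer of that silencing. Loss of that methylation in cancer cells is known to switch on individual genes of a family. MAGE proteins share a MAGE homology domain, through which they bind RING-type ubiquitin ligases, whereas SPANX proteins are small nuclear envelope-associated proteins of sperm.

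The families hold copies so alike that sequence decides how well a fragment can be assigned to 1 gene. The promoters of MAGEA3 and MAGEA6, 2 genes on opposite strands of chromosome X, are shown first, since the level of MAGEA6 lay far apart between the lines and that of MAGEA3 overlapped. The window from 250 bases before to 50 bases after the transcription start was the same sequence over all 300 bases for MAGEA3 (GRCh38.p14, chrX:152698544-152698843, plus strand) and MAGEA6 (chrX:152769640-152769939, minus strand), as RefSeq gives them. Capitals mark CCGGAA, the core of an ETS factor site, and TGACGT, the core of a cyclic AMP response element.

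MAGEA3 and MAGEA6 promoter: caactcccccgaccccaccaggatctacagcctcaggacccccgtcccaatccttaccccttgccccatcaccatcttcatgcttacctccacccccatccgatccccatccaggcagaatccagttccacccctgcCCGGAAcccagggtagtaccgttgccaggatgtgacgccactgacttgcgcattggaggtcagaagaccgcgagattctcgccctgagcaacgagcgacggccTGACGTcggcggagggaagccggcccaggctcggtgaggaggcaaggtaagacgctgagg

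Those motifs were chosen after the sequences were seen, and each was searched as written and as its reverse complement. CCGGAA occurred in 17.2% of 35116 RefSeq promoter windows of the same length and TGACGT in 7.98%, and the 2 matches do not overlap each other. GGGCGG, the core of a GC box, was absent from this window and present in 44.95% of all windows. The window holds 19 CpG dinucleotides, against a median of 14 over all windows.

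The coding sequences, taken from GENCODE 29 transcripts on GRCh38, are 945 bases long in both genes and differ by 18 substitutions, an identity of 98.1%. Coding bases 466 to 615, a stretch with several of those differences, are shown with the differing bases in capitals.

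MAGEA6 coding bases: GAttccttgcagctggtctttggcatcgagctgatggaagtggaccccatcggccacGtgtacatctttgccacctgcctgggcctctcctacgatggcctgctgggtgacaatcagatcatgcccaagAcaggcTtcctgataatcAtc

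MAGEA3 coding bases: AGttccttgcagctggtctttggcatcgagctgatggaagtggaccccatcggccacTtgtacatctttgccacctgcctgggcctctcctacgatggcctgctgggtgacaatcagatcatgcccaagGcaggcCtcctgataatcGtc

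From the first coding base, the differences within this stretch, with the MAGEA6 base first, are G466A, A467G, G523T, A595G, T601C and A613G. SPANXB1 and its copy SPANXA1, which lie 580 kb apart on opposite strands, are shown next. SPANXB1 carries the highest level of the families in Pep2-E3, and the value given for SPANXA1 is close to 0 in both lines. Their promoter windows aligned over 261 bases with 5 substitutions and 1 gap, an identity of 97.7%. SPANXB1 is given at chrX:141002383-141002643 (plus strand) and SPANXA1 at chrX:141584729-141584988 (minus strand), both from RefSeq on GRCh38.p14, with capitals at the bases that differ or have no partner.

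SPANXB1 promoter: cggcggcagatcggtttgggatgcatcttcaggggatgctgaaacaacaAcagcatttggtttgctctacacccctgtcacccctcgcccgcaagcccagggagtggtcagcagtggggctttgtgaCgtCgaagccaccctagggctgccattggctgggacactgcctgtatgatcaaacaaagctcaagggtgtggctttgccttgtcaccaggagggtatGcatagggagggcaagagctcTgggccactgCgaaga

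SPANXA1 promoter: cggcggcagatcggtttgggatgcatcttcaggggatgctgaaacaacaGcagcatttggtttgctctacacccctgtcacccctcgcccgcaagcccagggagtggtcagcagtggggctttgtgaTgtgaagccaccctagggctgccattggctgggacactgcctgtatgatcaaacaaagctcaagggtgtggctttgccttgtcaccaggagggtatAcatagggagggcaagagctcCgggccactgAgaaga

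The full SPANXB1 window holds 9 CpG dinucleotides and 1 TGACGT, and the SPANXA1 window holds 6 CpG and none of that motif. The coding sequences differ more than the promoters, with 312 bases in SPANXB1, 294 in SPANXA1 and an identity of 88.1%. The stretch below covers coding bases 157 to 306 of SPANXB1 and 139 to 288 of SPANXA1, again with differing bases in capitals.

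SPANXB1 coding bases: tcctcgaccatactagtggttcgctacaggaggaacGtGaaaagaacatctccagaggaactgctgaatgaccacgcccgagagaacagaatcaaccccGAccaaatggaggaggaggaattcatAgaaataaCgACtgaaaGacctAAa

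SPANXA1 coding bases: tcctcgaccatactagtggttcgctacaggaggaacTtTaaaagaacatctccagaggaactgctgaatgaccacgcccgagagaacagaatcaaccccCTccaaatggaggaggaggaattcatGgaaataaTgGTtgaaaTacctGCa

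The depth behind each value was recovered from the deposited values. FPKM (fragments per kilobase of exon, scaled to the library total) multiplied by exon length and library total gave whole fragments for 100% of 180594 values within 0.001 of a whole number. The libraries held 17154511 to 17289162 fragments in Pep2-E3 and 17538266 to 18206694 fragments in MDA-MB-231, so that 0.0275 to 0.0291 FPKM in a 2 kb gene stands for 1 fragment. Of the Pep2-E3 libraries, replicate 1 stood furthest from its group mean, with a root mean square deviation of 0.205 on the log2 scale against 0.146 and 0.168 for replicates 2 and 3, and 0.129 to 0.135 for the MDA-MB-231 libraries. Genes known for high levels in MDA-MB-231 were present in both lines, with means of 41.8 to 251 FPKM over 7 genes in Pep2-E3 and 38.1 to 275 FPKM in MDA-MB-231, while the epithelial cadherin CDH1 and the hormone receptors ESR1 and PGR, which these cells lack, were below a mean of 0.5 FPKM over the libraries. The other 7 of 10 genes listed as low or absent in this line were above it in both lines, up to KRT8, a keratin of simple epithelia, at 64.5 ± 4.06 FPKM in Pep2-E3 and 50.01 ± 2.75 FPKM in MDA-MB-231 (SD, n = 3 each). Of 4 germ cell markers with values, all were below 0.5 FPKM, with 32 summed fragments in Pep2-E3 and 37 in MDA-MB-231. Of 4 leukocyte and endothelial markers with values, summed fragments were 36 in Pep2-E3 and 105 in MDA-MB-231, of which the leukocyte gene PTPRC gave 16 in Pep2-E3 and 70 in MDA-MB-231. Their part in the results was not tested. The same is true of replicate 1 of Pep2-E3, except where values without it are given below.

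Of the 41 members, 11 had a mean of at least 0.5 FPKM over the 6 libraries and entered the fit, limma-trend on log2(FPKM + 1) across 14235 genes, and 30 did not. At an adjusted p under 0.05, 3 of the 11 members were higher in Pep2-E3 (SPANXB1, MAGEA6 and MAGED2), against 14.6% of all tested genes, and 2 were lower (MAGED1 and PAGE2B), against 16.2%. All 3 Pep2-E3 values lay above all 3 MDA-MB-231 values in 4 members (22.8% of all tested genes) and below them in 2 (26.0%). Nothing is read from these counts, or from whether a member was called, since the same contrast led to the families. MAGEA6 and PAGE2B passed the filter only through the line where each was higher. In the other line their means were 0.438 FPKM (MAGEA6, MDA-MB-231) and 0.421 FPKM (PAGE2B, Pep2-E3). The median log2 fold change was 0.18 over the 11 members and -0.02 over all tested genes. Because bulk RNA was measured, more cells with a transcript and more transcript per cell cannot be told apart.

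**Figure D1:**
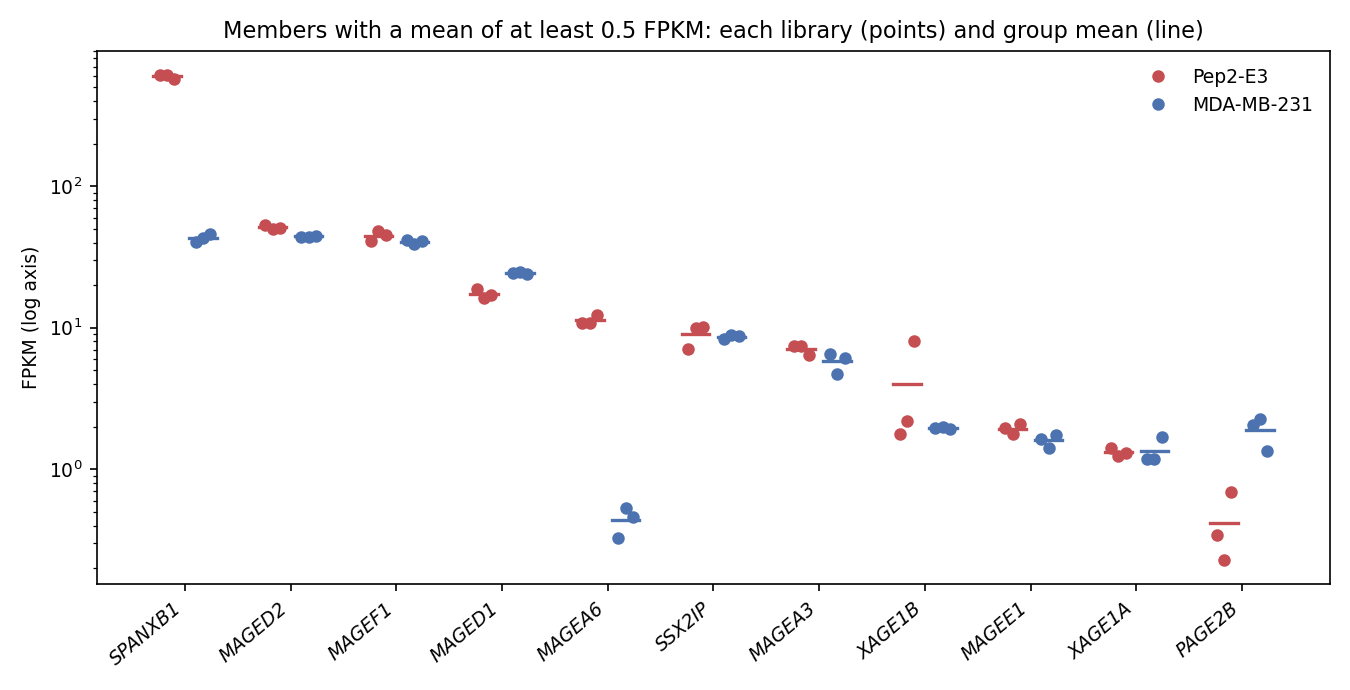
FPKM on a log axis of the 11 members with a mean of at least 0.5 FPKM, with Pep2-E3 (red, left) beside MDA-MB-231 (blue, right), points for the 3 libraries of each line and a short line at each mean. SPANXB1 and MAGEA6 stand well above their MDA-MB-231 values, PAGE2B and MAGED1 stand below, and XAGE1B has 1 high Pep2-E3 library.

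SPANXB1, a sperm protein gene (ENSG00000227234, GRCh38 chrX:141002591-141003706, plus strand), had 607, 610 and 572 FPKM in Pep2-E3 libraries, against 40.3, 42.9 and 46.2 FPKM in MDA-MB-231 libraries. Every Pep2-E3 library exceeded every MDA-MB-231 library, and the MDA-MB-231 cells already carried the transcript. It averaged 596 ± 21.3 FPKM in Pep2-E3 and 43.1 ± 2.97 FPKM in MDA-MB-231 (SD, n = 3 each), a 13.8-fold ratio and a log2 fold change of 3.76 ± 0.06 (SE). These levels rank 31 in Pep2-E3 and 941 in MDA-MB-231 by mean FPKM among the 14235 tested genes. In fragments, SPANXB1 had 4888, 4944 and 4599 in Pep2-E3 and 343, 366 and 380 in MDA-MB-231. SPANXA1, its copy, had 2, 0 and 0 fragments in Pep2-E3 and 0 in each MDA-MB-231 library. The other SPANX genes of GENCODE 29, 8 of 10, were not analysed here. Of the transcript words of 50 bases in SPANXB1, 21.7% also occur in transcripts of other genes, and 1.08% of words of 100 bases do. In SPANXA1, 100% of the words of either length also occur in SPANXA2. Its low count therefore cannot be told apart from an effect of how shared fragments were counted.

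Most of the difference in the summed members lay in SPANXB1. The 41 members together gave 729, 741 and 736 fragments per 1000000 of the library in Pep2-E3 and 461, 459 and 465 in MDA-MB-231. Without SPANXB1 they gave 444, 455 and 468 in Pep2-E3 and 442, 439 and 443 in MDA-MB-231.

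MAGEA6 encodes a MAGE protein that binds the ubiquitin ligase TRIM28 (ENSG00000197172, chrX:152766136-152769747, minus strand). It had 10.9, 10.8 and 12.2 FPKM in Pep2-E3, against 0.325, 0.531 and 0.459 FPKM in MDA-MB-231. The groups lie far apart, and the MDA-MB-231 level is low. The means were 11.3 ± 0.812 FPKM in Pep2-E3 and 0.438 ± 0.104 FPKM in MDA-MB-231 (SD, n = 3 each), a 25.8-fold ratio. They rest on 347, 348 and 391 fragments in Pep2-E3 and 11, 18 and 15 fragments in MDA-MB-231. As log2(FPKM + 1) the fold change was 3.10 ± 0.08 (SE), which understates the ratio because the MDA-MB-231 level is below the added 1. With an added 0.1 it was 4.42, with an added 5 it was 1.58, and limma-voom, run on recovered fragments, gave 4.68.

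MAGEA3, the 63.8 kb distant copy of MAGEA6 (ENSG00000221867, chrX:152698752-152702347, plus strand) whose protein binds the same ligase, was present in both lines. It had 7.40, 7.44 and 6.46 FPKM in Pep2-E3, against 6.56, 4.70 and 6.15 FPKM in MDA-MB-231. The groups overlap. The means were 7.10 ± 0.557 FPKM in Pep2-E3 and 5.80 ± 0.978 FPKM in MDA-MB-231 (SD, n = 3 each), a ratio of 1.22, and the gene was not called. They rest on 227, 230 and 198 fragments in Pep2-E3 and 213, 153 and 193 fragments in MDA-MB-231. Of the 50-base words of MAGEA6, 53.9% also occur in other transcripts, and 52.0% occur in MAGEA3. Of those of MAGEA3, 56.5% occur elsewhere and 54.9% in MAGEA6. Words of 100 bases are shared for 33.0% in MAGEA6 and 34.9% in MAGEA3. None of the exons of the 11 members in the fit overlaps an exon of another gene. How fragments matching both copies were counted is not given in the sources used here, so a transfer of fragments between the pair cannot be told apart from their own levels. Their sum does not depend on how fragments were split within the pair, although fragments left out as ambiguous would be missing from it. MAGEA3 and MAGEA6 together gave 33.4, 33.4 and 34.3 fragments per 1000000 in Pep2-E3 and 12.3, 9.39 and 11.9 in MDA-MB-231, a ratio of means of 3.01. Every Pep2-E3 sum exceeded every MDA-MB-231 sum. The 4 other MAGEA genes with values (MAGEA1, MAGEA2, MAGEA8 and MAGEA12) had at most 2 fragments in any library of either line, so the family sum, 33.8 ± 0.522 fragments per 1000000 in Pep2-E3 and 11.3 ± 1.52 in MDA-MB-231 (SD, n = 3 each), is close to the sum of the pair. MAGEA2 shares 96.4% of its 50-base words with MAGEA2B, so the limit of shared fragments holds for its count too. The coding sequence of MAGEA12 has an identity of 92.5% with that of MAGEA6.

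**Figure D2:**
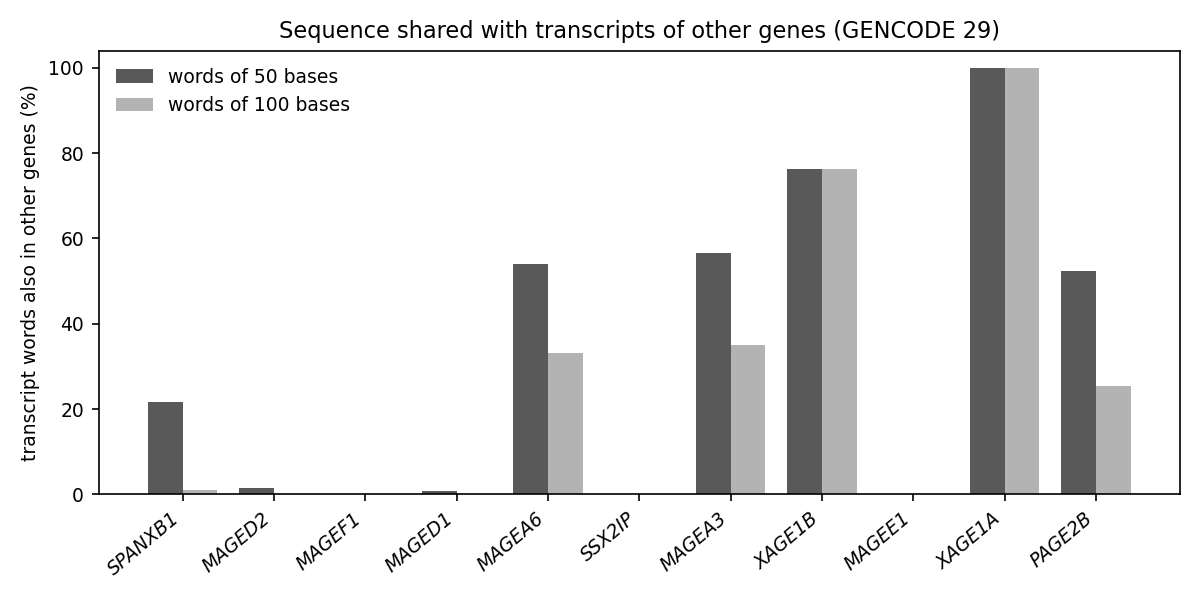
Percentage of the transcript words of 50 (dark) and 100 bases (light) of each of the 11 members that also occur in GENCODE 29 transcripts of other genes. XAGE1A is shared throughout at 100%, MAGEA6, MAGEA3 and PAGE2B share over 50% of the shorter words, and MAGED1, MAGED2, MAGEE1, MAGEF1 and SSX2IP share little or nothing.

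PAGE2B, a P antigen family gene (ENSG00000238269, chrX:55075063-55078909, plus strand), was lower in Pep2-E3. It had 0.345, 0.228 and 0.690 FPKM in Pep2-E3, against 2.06, 2.27 and 1.35 FPKM in MDA-MB-231. The groups do not overlap, but the fragments behind them were few: 3, 2 and 6 in Pep2-E3 and 19, 21 and 12 in MDA-MB-231. The means were 0.421 ± 0.240 FPKM in Pep2-E3 and 1.90 ± 0.485 FPKM in MDA-MB-231 (SD, n = 3 each), a ratio of 0.222 and a log2 fold change of -1.03 ± 0.17 (SE). It was -2.005 with an added 0.1, -0.35 with an added 5 and -2.10 with limma-voom. Its copy PAGE2, 10.1 kb away on the same strand with a coding identity of 96.1%, shares 50.3% of the 50-base words of PAGE2B and was the highest member under the 0.5 FPKM mean. It had 4, 0 and 1 fragments in Pep2-E3 and 0, 5 and 7 in MDA-MB-231. Summed over the pair, the Pep2-E3 libraries held 16 fragments and the MDA-MB-231 libraries 64.

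XAGE1A (ENSG00000204379, chrX:52495676-52500812, plus strand) and XAGE1B (ENSG00000204382, chrX:52512077-52520803, minus strand) encode X antigen family proteins, with the same coding sequence of 246 bases. RefSeq gives 2 promoter windows for XAGE1A and 3 for XAGE1B, and the best-matching pair was identical over all 300 bases. The genes lie 11.3 kb apart. XAGE1A had 1.41, 1.24 and 1.31 FPKM in Pep2-E3, against 1.18, 1.18 and 1.70 FPKM in MDA-MB-231, and the groups overlap. XAGE1B had 1.77, 2.21 and 8.04 FPKM in Pep2-E3, against 1.95, 1.98 and 1.94 FPKM in MDA-MB-231. Here too the groups overlap, and a single library, Pep2-E3 replicate 3, stands above the rest, with 195 fragments against 43 and 54 in the other Pep2-E3 libraries and 48 to 51 in MDA-MB-231. The means were 4.01 ± 3.50 FPKM in Pep2-E3 and 1.95 ± 0.0236 FPKM in MDA-MB-231 (SD, n = 3 each), with a log2 fold change of 0.55 ± 0.41 (SE) that was 0.01 without Pep2-E3 replicate 3. All 50-base words of XAGE1A and 76.3% of those of XAGE1B occur in other transcripts. How the fragments divide between the pair therefore cannot be told apart from the sequence, and the sum of the pair was 4.02, 4.45 and 12.8 fragments per 1000000 in Pep2-E3 and 4.02, 4.06 and 4.56 in MDA-MB-231.

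Of the type II MAGE genes, MAGED1, MAGED2, MAGEE1 and MAGEF1 were present in both lines, with smaller differences than the genes above that were called. MAGED1, a partner of the neurotrophin receptor NGFR (ENSG00000179222, chrX:51803007-51902357, plus strand), had 18.6, 16.2 and 16.9 FPKM in Pep2-E3, against 24.4, 24.7 and 24.1 FPKM in MDA-MB-231. It was lower in every Pep2-E3 library, with means of 17.2 ± 1.26 FPKM in Pep2-E3 and 24.4 ± 0.292 FPKM in MDA-MB-231 (SD, n = 3 each) and a log2 fold change of -0.48 ± 0.06 (SE). MAGED2, a gene mutated in a transient antenatal form of Bartter syndrome (ENSG00000102316, chrX:54807599-54816012, plus strand), had 53.6, 49.95 and 50.6 FPKM in Pep2-E3, against 44.1, 43.9 and 44.6 FPKM in MDA-MB-231. It was higher in every Pep2-E3 library, by 0.21 ± 0.04 on the log2 scale (SE), and was no longer called without MDA-MB-231 replicate 1 or without MDA-MB-231 replicate 2, at log2 fold changes of 0.21 in both. The MAGED family sum was 255 ± 13.2 fragments per 1000000 in Pep2-E3 and 277 ± 0.835 in MDA-MB-231 (SD, n = 3 each).

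MAGEE1, which binds a component of the dystrophin complex (ENSG00000198934, chrX:76427724-76431353, plus strand), had 1.94, 1.77 and 2.10 FPKM in Pep2-E3, against 1.64, 1.41 and 1.76 FPKM in MDA-MB-231. The groups do not overlap, by a narrow margin. Its log2 fold change was 0.18 ± 0.09 (SE) and it was not called. MAGEF1, which works with the ubiquitin ligase NSMCE1 (ENSG00000177383, chr3:184710367-184712002, minus strand), had 41.3, 48.0 and 45.003 FPKM in Pep2-E3, against 41.7, 39.1 and 40.8 FPKM in MDA-MB-231, and the groups overlap. SSX2IP, an adherens junction and centrosome protein gene rather than an SSX copy (ENSG00000117155, chr1:84643707-84690803, minus strand), had 7.08, 9.98 and 10.1 FPKM in Pep2-E3, against 8.34, 8.88 and 8.69 FPKM in MDA-MB-231. Its groups overlap, and its lowest value was in Pep2-E3 replicate 1, the library furthest from its group. Without that library MAGEF1 and SSX2IP were both called higher, at log2 fold changes of 0.19 and 0.20 against 0.14 and 0.05 with it, and the number of members called higher was 5. SPANXB1 and MAGEA6 were at 3.75 and 3.12 without it, and MAGED1 and PAGE2B at -0.53 and -0.99.

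**Figure D3:**
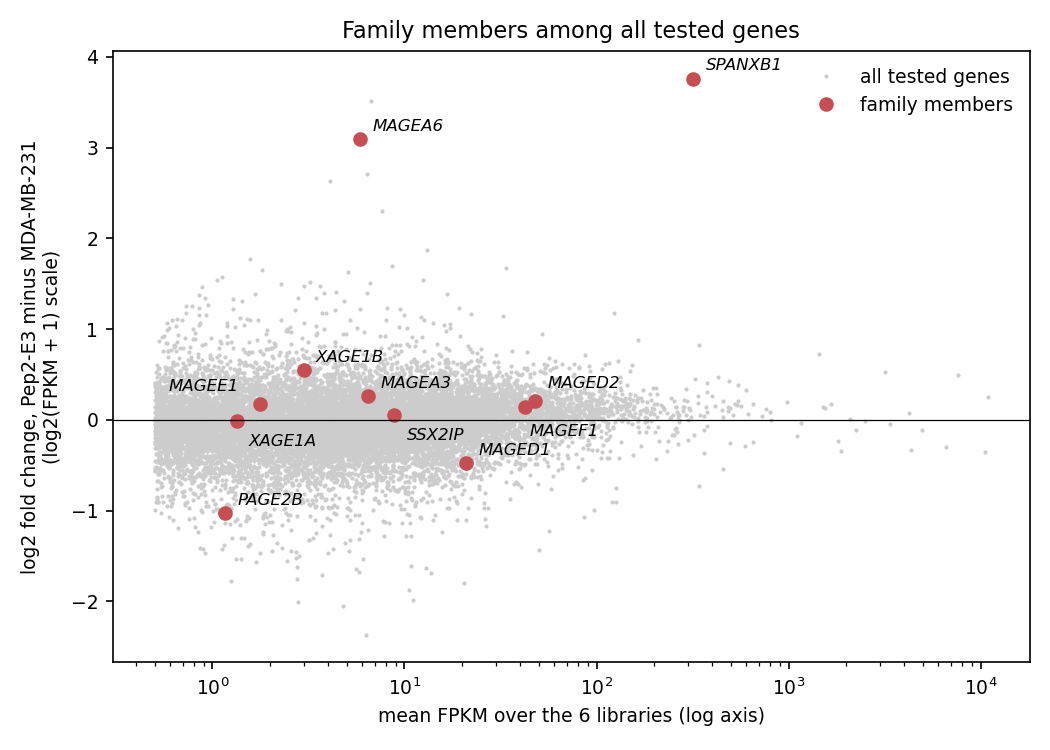
Log2 fold change of Pep2-E3 minus MDA-MB-231 on the log2(FPKM + 1) scale against the mean FPKM over the 6 libraries on a log axis, with grey points for all 14235 tested genes and red points for the 11 members. SPANXB1 at 3.76 and MAGEA6 at 3.10 lie above nearly all grey points, and the other 9 members lie between -1.03 and 0.55.

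The other 30 members were scarcely detected in either line. The highest count in any library was 12 fragments, in MAGEH1, and 22 of the 30 had at most 3 fragments in every library. Their summed fragments were 17, 30 and 24 in Pep2-E3 and 33, 21 and 29 in MDA-MB-231, so the sums overlap. The number above 0 was 10, 11 and 13 of 30 in Pep2-E3 and 14, 11 and 10 in MDA-MB-231. In 11 of them a single fragment was found in all 6 libraries together. A count of 0 in a library allows up to 3 fragments. Differences between counts this small were not tested, and the limit covers counting error only.

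**Figure D4:**
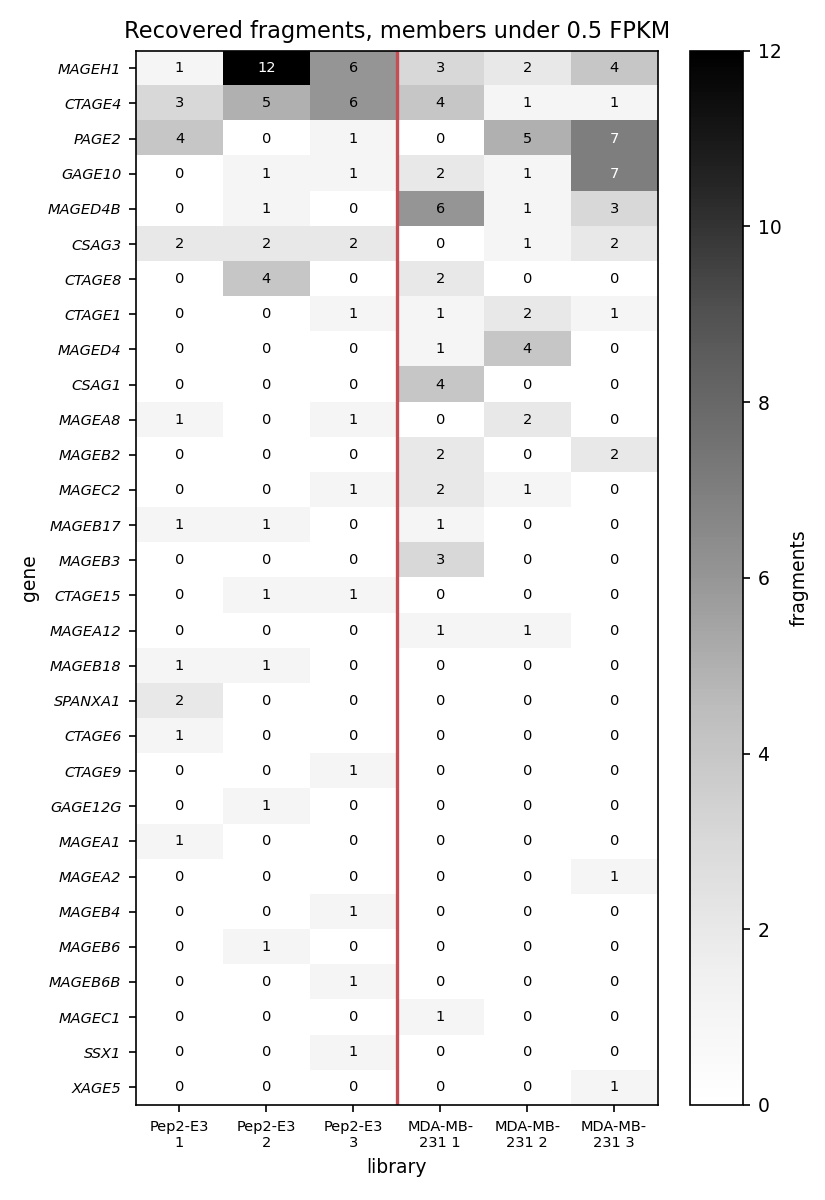
Recovered fragments in each of the 6 libraries (columns, Pep2-E3 left and MDA-MB-231 right of the red line) for the 30 members with a mean under 0.5 FPKM (rows), shaded by count. Most cells hold 0 to 3 fragments, and the highest is 12, in MAGEH1.

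The genes closest to the filter show where it lies. Above it PAGE2B had a mean of 1.16 FPKM over the 6 libraries, and below it PAGE2 had 0.243, GAGE10 0.211 and MAGEH1 0.183. GAGE10, a G antigen family gene, had 0, 1 and 1 fragments in Pep2-E3 and 2, 1 and 7 in MDA-MB-231. MAGEH1, a type II MAGE gene, had 1, 12 and 6 fragments in Pep2-E3 and 3, 2 and 4 in MDA-MB-231. In both the libraries of the 2 lines overlap. MAGEB (7 genes), MAGEC (2), CSAG (2) and SSX1, whose fusion with SS18 marks synovial sarcoma, gave no more than 4 fragments per gene in a library, and the CTAGE genes no more than 6. MAGED4 had 0, 0 and 0 fragments in Pep2-E3 and 1, 4 and 0 in MDA-MB-231, and its copy MAGED4B had 0, 1 and 0 in Pep2-E3 and 6, 1 and 3 in MDA-MB-231. XAGE5 and GAGE12G had 1 fragment each over all libraries. No member with the CTAG prefix other than CTAGE genes had values, so the NY-ESO-1 genes were not analysed here. Of the 30, 26 share 50-base words with other transcripts and 11 share over 50% of them.

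The chromosomal surroundings of the members whose group means differed by at least 2-fold were also measured, as the 5 nearest genes with values on each side. XAGE1B is among them only through Pep2-E3 replicate 3, without which its log2 fold change was 0.01, and it was not called. Around MAGEA6, 4 of the 10 were members (CSAG3, MAGEA2, MAGEA12 and CSAG1) with at most 4 fragments in any library, and 1 of 3 other genes in the fit was called, NSDHL, a sterol synthesis enzyme gene 61.2 kb away, which rose to 13.2 FPKM in Pep2-E3, against 10.9 FPKM in MDA-MB-231 (log2 fold change 0.25 ± 0.08, SE; limma adjusted p = 0.049). Near SPANXB1, 2 non-members were in the fit, and 1 of them is not reported here. The other, LDOC1, a leucine zipper protein gene 172 kb away, averaged 7.30 FPKM in Pep2-E3 and 2.37 FPKM in MDA-MB-231 (log2 fold change 1.30 ± 0.10, SE; limma adjusted p = 0.000476). Around PAGE2B, 1 of 4 non-members in the fit was called: APEX2, a DNA repair endonuclease gene, averaged 28.6 FPKM in Pep2-E3 and 23.6 FPKM in MDA-MB-231 (0.27 ± 0.05, SE; limma adjusted p = 0.0123). Around XAGE1B, none of the 5 non-members was in the fit. Over chromosome X, 65 of 428 other tested genes were higher and 56 lower in Pep2-E3, near the 14.6% and 16.2% of all tested genes, with a median log2 fold change of 0.02.

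Other cancer-testis antigen genes with names outside the rule form a list chosen with earlier results of these data known. Of 79 listed, 42 had values and 17 were in the fit, of which 3 were higher and 5 lower in Pep2-E3, where 14.6% of all tested genes were higher and 16.2% lower. The median log2 fold change was -0.13 beside -0.02 for all tested genes, and nothing particular to this list is read from so few genes. The other 25 with values, CTCFL among them, were under the filter, and neither the calls nor this median covers them. OIP5, a centromere protein gene, rose to 11.1 ± 0.397 FPKM in Pep2-E3, against 8.07 ± 1.46 FPKM in MDA-MB-231 (SD, n = 3 each; limma adjusted p = 0.0285). CEP55, a cytokinesis gene, and TSGA10, a sperm tail gene, were the others that rose, at log2 fold changes of 0.19 ± 0.05 and 0.36 ± 0.10 (SE; limma adjusted p = 0.0334 and 0.0385). SPAG4, a nuclear envelope gene, fell to 3.62 ± 0.545 FPKM in Pep2-E3, against 6.35 ± 0.865 FPKM in MDA-MB-231 (SD, n = 3 each; limma adjusted p = 0.0078). CABYR, a sperm calcium-binding gene, NUF2, a kinetochore gene, ATAD2, a bromodomain gene, and SPAG9, a scaffold gene, were the other 4 that fell, by 0.25 to 0.51 on the log2 scale. The number called was 4 without Pep2-E3 replicate 2 and without any single MDA-MB-231 library. CTCFL, a testis paralog of CTCF, had 1 fragment in Pep2-E3 and 0 in MDA-MB-231. PRAME was not analysed here.

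Genes listed around the silencing of germline genes in somatic cells were called at about the share of all genes. The list takes in TET1, which was under the filter, and TET2 and TET3, which were not called. Of 41 listed, 40 were in the fit, of which 6 were higher and 7 lower in Pep2-E3, against 14.6% higher and 16.2% lower of all tested genes. Their median log2 fold change was 0.02, and nothing particular to the list is read from these counts. UHRF1, which recruits the maintenance methyltransferase to newly copied DNA, rose to 42.7 ± 1.79 FPKM in Pep2-E3, against 29.4 ± 1.40 FPKM in MDA-MB-231 (SD, n = 3 each; limma adjusted p = 0.0014). That is a log2 fold change of 0.53 ± 0.06 (SE). RING1 and E2F6, members of the PRC1.6 complex, rose by 0.25 and 0.33, EZH2, the H3K27 methyltransferase, by 0.23, and MPHOSPH8 and DAXX also rose. The H3K4 demethylase KDM5B fell by 0.36, the methyltransferases EZH1 and SETDB1 by 0.30 each and the demethylase KDM1A by 0.24, and TASOR, MORC2 and ZBTB38 also fell. The 13 called genes numbered 4 without Pep2-E3 replicate 2, and 3, 5 and 5 without MDA-MB-231 replicates 1, 2 and 3 in turn. The DNA methyltransferases were not called: DNMT1 averaged 55.0 ± 4.02 FPKM in Pep2-E3 and 49.0 ± 0.391 FPKM in MDA-MB-231 (SD, n = 3 each; limma adjusted p = 0.0813). DNMT3A averaged 1.76 ± 0.0869 FPKM in Pep2-E3 and 2.13 ± 0.0760 FPKM in MDA-MB-231 (SD, n = 3 each; limma adjusted p = 0.0861), and DNMT3B averaged 16.2 ± 0.944 FPKM in Pep2-E3 and 17.6 ± 0.388 FPKM in MDA-MB-231 (SD, n = 3 each; limma adjusted p = 0.171). DNA methylation itself was not measured here.

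The ubiquitin ligases, clients and other partners of MAGE proteins form a list that shares TRIM28 with the silencing genes. Of 24 listed, 20 had values and 17 were in the fit, of which 2 were higher and 2 lower in Pep2-E3, beside the 14.6% and 16.2% of all tested genes. The median log2 fold change was -0.03, and no difference from other genes is read from these counts. TRIM28, the ligase of MAGEA3 and MAGEA6 and itself a silencer, averaged 114 ± 9.05 FPKM in Pep2-E3 and 99.3 ± 2.89 FPKM in MDA-MB-231 (SD, n = 3 each; limma adjusted p = 0.0632). PRKAA1, which encodes the AMPK subunit that the MAGEA3 or MAGEA6 and TRIM28 ligase marks for degradation, averaged 16.8 ± 4.70 FPKM in Pep2-E3 and 18.1 ± 1.497 FPKM in MDA-MB-231 (SD, n = 3 each; limma adjusted p = 0.63). NSMCE3, a MAGE homology domain gene of the SMC5 and SMC6 complex, and PJA1, a ligase bound by MAGED1, rose by 0.29 ± 0.07 and 0.34 ± 0.08 (log2, SE; limma adjusted p = 0.0168 and 0.0193). DCAF12, a receptor that targets MAGEA3 and MAGEA6 for degradation, and NSMCE4A, a subunit of the same complex as NSMCE3, fell by 0.17 ± 0.05 and 0.14 ± 0.04 (log2, SE; limma adjusted p = 0.0361 and 0.0487). The 4 called genes numbered 7 without Pep2-E3 replicate 1 and 1 without Pep2-E3 replicate 2, and 0, 2 and 0 without MDA-MB-231 replicates 1, 2 and 3 in turn. MAGEL2, NDN and TRO, the other genes of that domain outside the rule, were not analysed here.

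**Figure D5:**
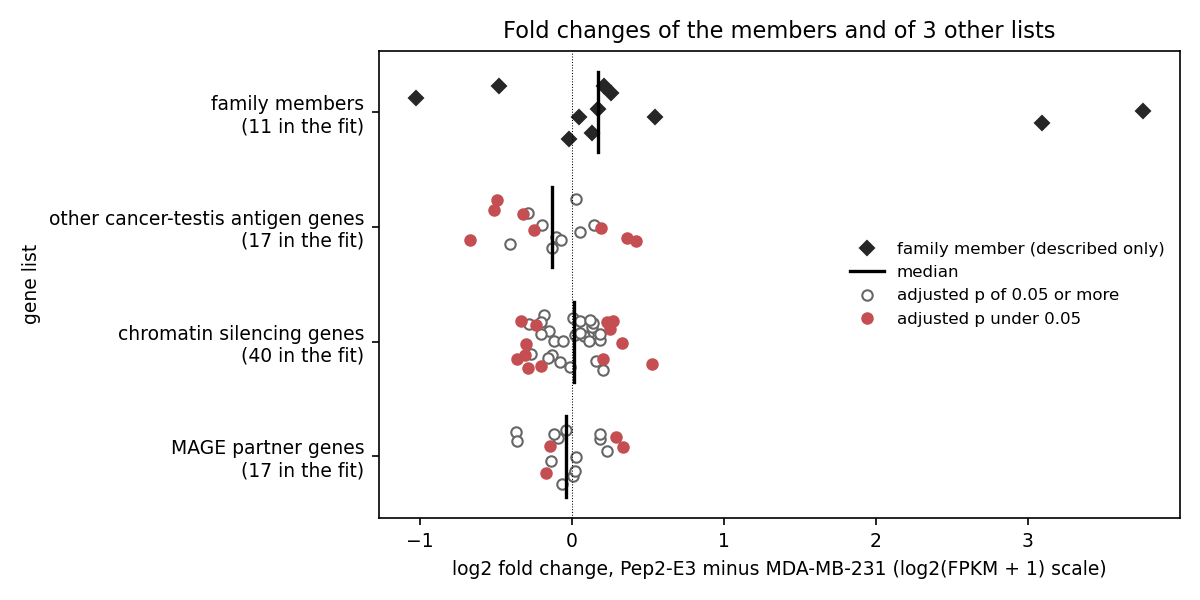
Log2 fold changes of Pep2-E3 minus MDA-MB-231 on the log2(FPKM + 1) scale for the 11 members (diamonds) and the genes in the fit of the 3 other lists (circles, filled where the adjusted p is under 0.05), with a black line at each median. SPANXB1 and MAGEA6, at 3.76 and 3.10, lie beyond every gene of the other lists.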

How the data were processed

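RNA-seq libraries of 3 Pep2-E3 and 3 MDA-MB-231 samples were compared. RNA was extracted with Trizol and libraries made with a NEBNext Ultra kit, per the labels' protocols; strand was not marked. HTSeq 0.6.0, HISAT2 version 2, Bowtie2 2.2.3 and a mouse build are named, without roles, per the submitters' processing notes; the deposited files list human Ensembl identifiers. The authors deposited FPKM per gene, so depth was recovered as whole fragments. Handling of fragments that match several copies is not given in the sources used here. Genes with a mean of at least 0.5 FPKM over the 6 libraries were tested as log2(FPKM + 1) with limma 3.58.1 (trend) in R 4.3.3, with Benjamini-Hochberg adjustment over all tested genes and a threshold of 0.05. Alternatives were other pseudocounts and filters, RLE factors, a replicate block, each library left out, and limma-voom on the recovered fragments with RLE factors, a scaling chosen after the data were seen. The script was checked on simulated data. Members, lists and alternatives were chosen with earlier results of these data known, and motifs after the sequences were seen. Members with a mean of at least 0.5 FPKM in either line, those next to the filter, up to 4 called genes in each direction per list by smallest p, and a few fixed regulators were named. Promoter windows come from RefSeq (GRCh38.p14; 38 of 41 members matched), transcripts from GENCODE 29. Alignments used Biopython 1.88. Shared words are exact matches of 50 or 100 bases. Intervals and floors cover counting error only, since fragments were not tagged with molecular identifiers. One neighbouring gene is not reported here.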

Additional observations from a re-analysis of the deposited data

How the results depend on the processing

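Of 143 log2 fold changes of named members under 13 alternatives, 133 kept their value within the replicate spread, 10 moved, mostly with the pseudocount, and none of the called values reversed. The other filters and the replicate block cannot change a log2 fold change, so those settings count as kept by design. XAGE1B also counts as kept throughout, because its own replicate spread is wide. The count of 133 is therefore no measure of how stable the values are. Ranges were 3.64 to 3.81 for SPANXB1, 1.58 to 4.68 for MAGEA6, -2.10 to -0.35 for PAGE2B and 0.01 to 0.87 for XAGE1B. With no filter on low values the called genes numbered 4 other cancer-testis antigen genes (8 as reported) and 5 silencing genes (13 as reported). With RLE size factors 2 MAGE partner genes were called (4 as reported). The planned TMM scaling for limma-voom was not run; with RLE factors limma-voom called 4774 of all tested genes and 17 silencing genes. Same-numbered libraries showed no clear shared deviation from their group means (correlations of -0.04, 0.04 and -0.06). These values cannot settle whether those libraries were prepared together. With the replicate block, 2966 of all tested genes were called (4383 as reported), with 2 members higher (MAGED2, at 0.21, was no longer called), 4 other cancer-testis antigen genes, 3 silencing genes and 1 partner gene. Leaving out 1 library at a time, all genes called ranged from 2471 to 4866, members higher from 2 to 5, members lower stayed at 2, other cancer-testis antigen genes ranged from 4 to 8, silencing genes from 3 to 13 and partner genes from 0 to 7. The lowest count of all genes came without MDA-MB-231 replicate 2 and the highest without Pep2-E3 replicate 1, and the cause was not tested. Low fragment counts limit PAGE2B, MAGEA6 in MDA-MB-231, the XAGE1 pair and the 30 members under the filter. Shared sequence limits MAGEA3, MAGEA6, PAGE2B, XAGE1A and XAGE1B. It also limits the 11 members under the filter that share over 50% of their 50-base words, among them SPANXA1 and MAGEA2.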
